A study of Mus musculus with 14 samples.

Results

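Cortical neurons that carry BRG1 S1382A, in which alanine replaces serine 1382 (called SA here), were compared with neurons of wild-type littermates at basal, that is in silenced cultures that received no KCl. The members were set by their labels, with earlier results of these data known: 2 SA and 2 wild-type libraries, 4 of the 14 libraries of the series. All were primary cortical neurons from E16.5 mouse embryos, silenced on day 5 in vitro with 1 µM TTX, a sodium channel blocker, and 100 µM APV, an NMDA receptor blocker, as the protocol common to all samples states. Of the other 10 libraries, 4 were SA and littermate wild type after 1 h of 50 mM KCl on day 6. The remaining 6 came from neurons with S1382E (SE, glutamate at the same residue) and their own wild-type littermate. The libraries are called SA 1, SA 2, wild type 1 and wild type 2 after the replicate numbers in the labels. The labels do not state whether libraries of a group came from separate embryos or cultures, whether pups were pooled, or whether the mutant allele was present in 1 or both copies, so p-values measure only the spread between these libraries.

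BRG1, encoded by Smarca4, is an ATPase that drives the BAF complex, a chromatin remodeller that slides and evicts nucleosomes at promoters and enhancers. In neurons a BAF complex with neuron-specific subunits takes part in dendrite growth and in the transcriptional response to activity. Phosphorylation of BRG1 at this serine is the subject of the series, and the basal comparison asks whether losing the site alters transcripts before any stimulus.

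Depth was even over the 4 libraries (22625916 to 22842934 estimated counts), as were the number of detected symbols (25377 to 25841) and the mitochondrial share (6.76% to 7.95%). Levels below are CPM, counts scaled to the library size after TMM normalization. Markers of cortical neurons were present in all 4: Gad1, a GABA-synthesising enzyme of inhibitory neurons, stood between 91.8 and 127 CPM, and Neurod2, a transcription factor of excitatory neurons, between 92.6 and 121 CPM. Astrocyte RNA was present as well, with Gfap at 906 and 1024.5 CPM in SA and 514 and 956 CPM in wild type. Xist stood at 634 CPM in SA 1 and 746 CPM in wild type 2 and below 1 CPM in the other two, so each genotype held 1 library with it and 1 without.

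Wild type 1 stood apart from the other three libraries. Over 14608 genes with a mean of at least 1 CPM, the root mean square log2 difference was 0.39 between the SA libraries and 0.53 between the wild-type libraries. It was 0.29 between SA 1 and wild type 2 and 0.32 between SA 2 and wild type 2, so wild type 2 lay closer to both SA libraries than the wild-type libraries lay to each other. Wild type 1 lay 0.65 from SA 1 and 0.50 from SA 2. Of 11895 genes with a mean of at least 5 CPM, 627 (5.27%) were at least 2-fold from the mean of the other three in wild type 1, against 240 in SA 1, 37 in SA 2 and 16 in wild type 2. The 627 comprised 204 higher and 423 lower genes.

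The 12 genes lowest in wild type 1 relative to the other three included Nrgn and Slc17a7, which mature excitatory neurons express. Nrgn, which encodes the postsynaptic calmodulin-binding protein neurogranin (chromosome 9, 37544492 to 37552904, minus strand), was at 726 and 614 CPM in SA 1 and SA 2, 33.1 in wild type 1 and 503 in wild type 2. Slc17a7, the vesicular glutamate transporter VGLUT1 (chromosome 7, 45163949 to 45176142, plus strand), was at 375 and 315 CPM in SA, 24.7 in wild type 1 and 268 in wild type 2. Only wild type 1 was low, and wild type 2 lay near SA. The zinc transporter of synaptic vesicles Slc30a3, the proline transporter Slc6a7, the retinoic acid-degrading enzyme Cyp26b1, the thyroid hormone-inactivating enzyme Dio3, the neuropeptide gene Nts and Cpne7, Klhl1, Lamp5, Vsig2 and Nov showed the same order, with wild type 1 at 0.438 to 10.3 CPM and the lowest of the other libraries at 5.99 to 81.9. Of 15 glutamatergic neuron markers, wild type 1 was the lowest library for 9 and the highest for 4, beside 33.3% and 34.4% of all genes. Neurod6 stood at 253 CPM in wild type 1 and 113 to 173 CPM in the other three.

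The genes highest in wild type 1 included the imprinted RNA H19, at 30.4 CPM against 6.13 and 7.10 in SA and 6.18 in wild type 2, and Lcn2, a secreted iron-siderophore carrier induced by inflammation, at 18.1 against 2.30, 4.58 and 3.11 CPM. B2m, the light chain of MHC class I, was at 128 CPM in wild type 1, 36.0 and 47.4 in SA and 42.7 in wild type 2. Apod, Tmem132c, Bst2, Ifi27, Slc7a3, Eda2r, Msx1, Eif4ebp1 and Cgnl1 completed the 12 by the same rule. The KCl library numbered wild type 1 repeated the pattern: 152 of the 204 high genes and 346 of the 423 low genes were also at least 2-fold from the mean of the other three KCl libraries. Across the 11895 genes the deviations of the basal and the KCl library correlated at r = 0.93, a description over genes, which are not independent. List medians below are therefore given with and without wild type 1, and genes by their value in each library. Without wild type 1, the lone wild-type library is assumed to vary like the other groups.

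**Figure D1:**
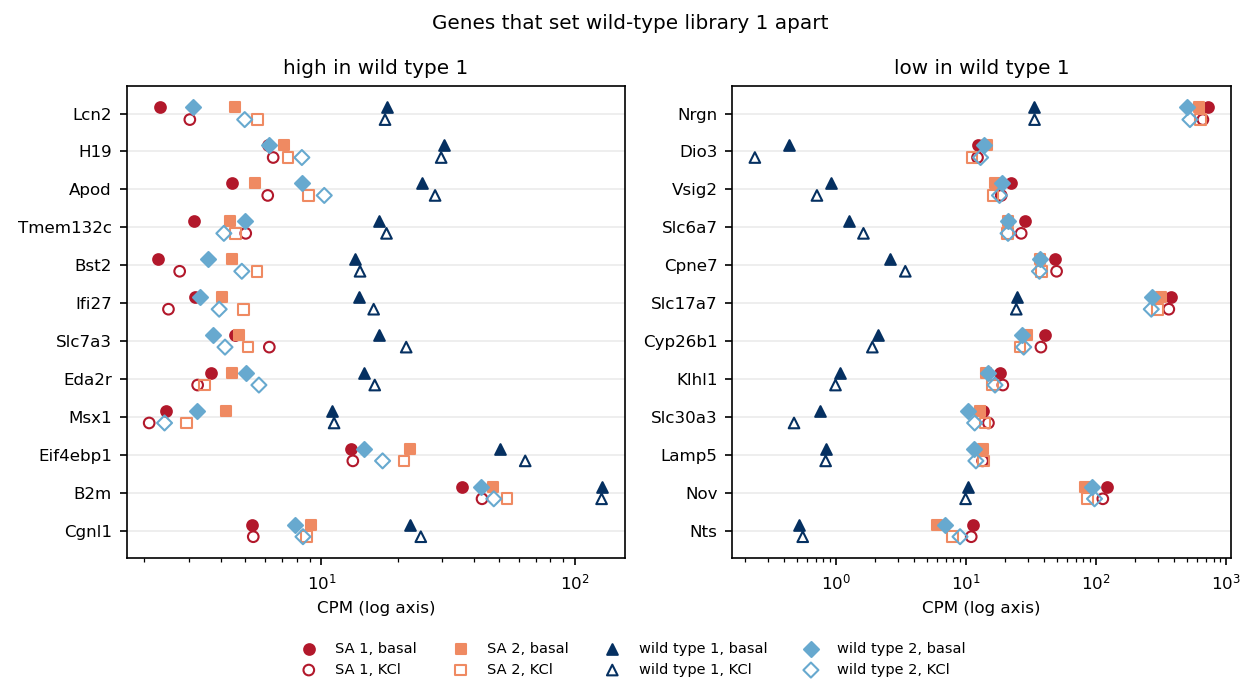
CPM on a log axis of the 12 genes highest and the 12 lowest in wild-type library 1 relative to the mean of the other three basal libraries; each point is 1 library, filled at basal and open after KCl. Wild type 1 lies apart in both treatments, for example at 33.1 CPM for Nrgn where the other basal libraries lie between 503 and 726.

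No gene passed the test between SA and wild type as designed. The edgeR quasi-likelihood test with Benjamini-Hochberg adjustment called 0 of 17732 genes (0%) at an adjusted p under 0.05, and the lowest adjusted p was 0.621. At an unadjusted p under 0.05 it gave 1279 genes, 583 higher in SA (3.29%) and 696 lower (3.93%). Scaling by library totals alone turned this split to 238 higher and 1191 lower, with the median of all genes at -0.09 on the log2 scale in place of 0.01. DESeq2 and limma on TPM also called 0, with 1105 and 1482 genes at an unadjusted p under 0.05. The main fit counts basal and KCl libraries as independent, although same-numbered ones deviated alike. Its unadjusted p-values and standard errors may therefore be too small. The edgeR fits of the SA line only and of the compared libraries only also called 0. Both gave fewer genes than 1279 at an unadjusted p under 0.05. With a block that pairs the libraries of like Xist level (SA 1 with wild type 2, SA 2 with wild type 1), an alternative added after the data were seen, edgeR called 16 genes. The 2 SA libraries were both above the 2 wild-type libraries for 3451 genes (19.5%) and both below for 2607 (14.7%). Among the 14608 genes of at least 1 CPM, 71 were at least 2-fold higher and 123 at least 2-fold lower in SA, and 31 and 31 without wild type 1. Differences of single genes below are therefore values, not calls, and every one from this comparison as designed has an adjusted p of at least 0.621.

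Smarca4 itself (ENSMUSG00000032187.16, chromosome 9, 21616169 to 21704230, plus strand) stood at 434 and 419 CPM in SA 1 and SA 2 and at 381 and 439 CPM in wild type 1 and 2. The groups overlapped, and the log2 difference of 0.06 ± 0.12 (standard error of the model) had an unadjusted p of 0.638. Direction depended on the scaling: it was -0.03 with library totals alone and -0.04 without wild type 1. The knock-in replaces an amino acid, so the level of Smarca4 says nothing about whether a library carries it. Of its 4 transcripts measured, Smarca4-204 carried most counts, at 321 and 313 CPM in SA and 276 and 316 in wild type. The 30 BAF subunit genes differed little: none had an unadjusted p under 0.05, 19 were higher and 11 lower, and the median log2 difference was 0.04, beside 0.01 over all genes. It was 0.01 without wild type 1 and -0.06 with library totals alone. The lowest p belonged to Smarcd1 (158 and 154 against 124 and 142 CPM), Ss18 (31.8 and 35.9 against 48.1 and 38.1) and Pbrm1, the PBAF subunit BAF180 (82.8 and 66.2 against 93.4 and 89.5).

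The 12 genes of lowest p that were lower in both SA libraries were of varied function. Postn among them returns with the meningeal genes below, so this ranking and those values are not wholly separate. Adamts12, a matrix metalloprotease (chromosome 15, 11064790 to 11349231, plus strand), was at 2.04 and 1.80 CPM in SA and 4.74 and 4.48 in wild type, a log2 difference of -1.26 ± 0.24. Gjb2, a gap junction connexin (chromosome 14, 57098600 to 57104702, minus strand), was at 1.00 and 0.813 against 2.63 and 2.32 CPM, a log2 difference of -1.44. For both genes the wild-type libraries lay close together, and without wild type 1 the differences were -1.22 and -1.35. Cxcl12, the chemokine that acts on CXCR4, was at 17.6 and 15.3 CPM in SA and 29.9 and 23.3 in wild type. Prune2 was at 26 and 29.5 against 39.9 and 47.6 CPM, and Cpne3, a calcium-dependent membrane-binding copine, at 19.9 and 19.4 against 33.7 and 29.1. Wild type 1 was the highest library for Cxcl12 and Cpne3, and wild type 2 for Prune2.

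The rest of the 12 lower genes were Srbd1, Golim4, Postn, Wdr35 (ciliary transport), Colec12 (a scavenger receptor), Evi5 and Cdh5, with log2 differences from -0.40 for Evi5 to -2.62 for Cdh5. Cdh5 encodes VE-cadherin, the endothelial adhesion protein, and stood at 0.522 and 0.257 CPM in SA and 3.58 and 1.25 in wild type, with wild type 1 well above wild type 2. The choice of these genes fixes their direction against wild type 2 alone. After KCl all 12 were lower in SA, and 4 of 12 were lower in SE than in its wild type. The KCl libraries are not independent of the basal ones: the difference of replicate 1 from 2 correlated across genes at 0.78 between treatments in SA and at 0.91 in wild type. After KCl Adamts12 was at 1.47 and 1.81 CPM in SA and 4.97 and 4.38 in wild type, and in SE neurons at 0.541 and 0.364 against 0.274 in the single wild type of that line. In the test of the difference between the SA and the SE effect, edgeR called 0 of 17732 genes (0%), with 333 at an unadjusted p under 0.05.

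The 12 genes of lowest p that were higher in both SA libraries differed by 0.36 to 1.02 on the log2 scale. Rab4b, a GTPase of recycling endosomes (chromosome 7, 27168424 to 27178896, minus strand), was at 58.7 and 54.4 CPM in SA and 35.5 and 41.2 in wild type, a log2 difference of 0.56 ± 0.13. Dolk, the kinase that makes dolichyl phosphate for glycosylation (chromosome 2, 30284231 to 30286334, minus strand), was at 26.3 and 27.6 against 18.9 and 19.0 CPM, a log2 difference of 0.51. In Dolk the wild-type libraries were nearly equal, and without wild type 1 its difference was again 0.51. The mitochondrial proteins Ndufb8, a subunit of complex I, and Sco2, a copper chaperone of cytochrome c oxidase, were at 108 and 99.7 against 81.9 and 75.6 CPM and at 7.43 and 8.60 against 4.54 and 5.10 CPM. Slc25a38, the mitochondrial glycine carrier of haem synthesis, was at 25.0 and 26.3 against 20.4 and 19.6 CPM.

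Dynlt1a (a dynein light chain), Rnasek, Ccdc28b, Sh3bgrl3, the kinase gene Pim2, Dpm2 (a subunit of dolichol-phosphate mannose synthase) and the alpha globin gene Hba-a2 completed the 12, with log2 differences from 0.36 for Dpm2 to 1.02 for Hba-a2. Dynlt1a and Hba-a2 have near-identical copies, among which reads may have been split. Hba-a2 was at 1.65 and 1.67 against 0.677 and 0.955 CPM, while its copy Hba-a1 was at 0.348 and 0.214 against 0.358 and 0.540 CPM, in the opposite order. After KCl all 12 were higher in SA, and 10 of 12 were higher in SE, while their direction against wild type 2 alone is fixed by the choice.

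**Figure D2:**
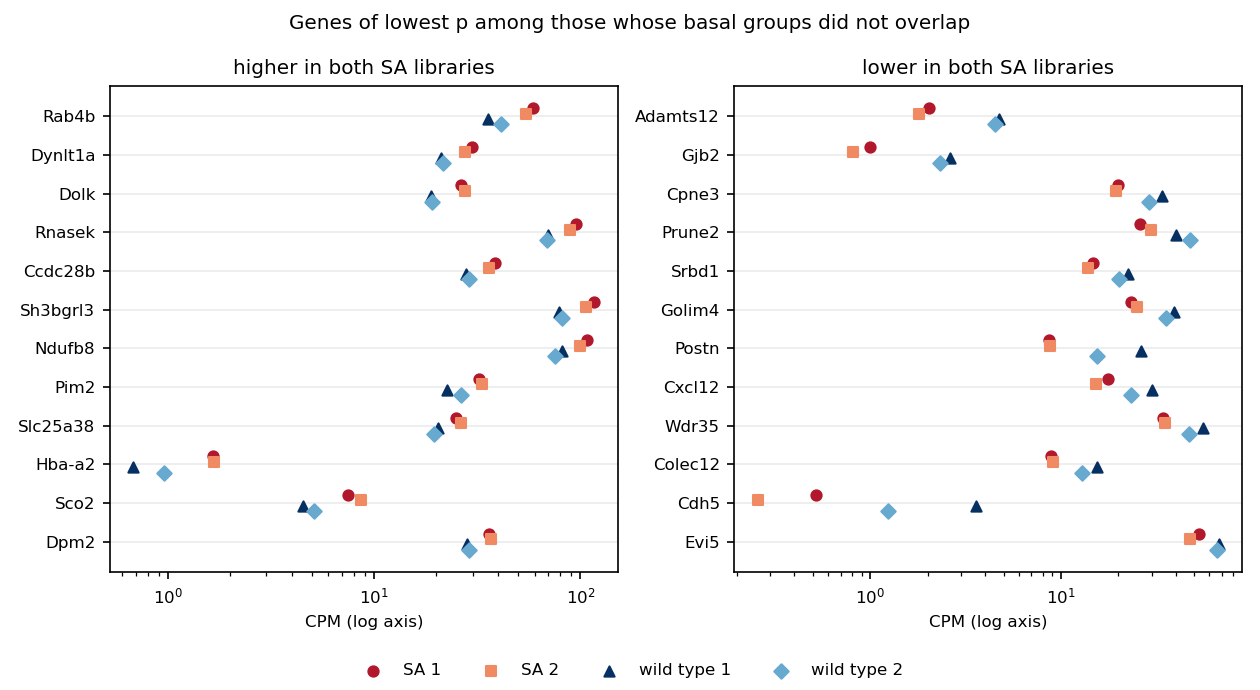
CPM on a log axis of the 12 genes of lowest p higher (left) and lower (right) in both SA libraries at basal; each point is 1 library. The SA pair and the wild-type pair do not overlap in any row, by the rule that chose them, and wild type 1 is farther from SA than wild type 2 for Cdh5 and Postn.

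The higher and lower genes differed in length and base composition. The 12 higher genes had a median transcript length of 847 bases and 55.6% GC, the 12 lower genes 4191 bases and 46.7% GC, and the 14608 genes of at least 1 CPM 2901 bases and 50.1% GC. Over those genes the median difference of SA from wild type 2 went from 0.18 (log2) in the shortest quintile to -0.14 in the longest, and that of SA from wild type 1 from -0.04 to 0.03. Against GC content the difference of SA from wild type went from -0.14 in the lowest quintile to 0.14 in the highest. The SA libraries differed from each other by a similar amount, from 0.20 to -0.08 over the quintiles of GC content. With a length and GC offset in the fit all 24 genes kept their direction, 0 genes were called, and 866 had an unadjusted p under 0.05. Rab4b then differed by 0.37 and Adamts12 by -1.16. Of the lists below, meningeal fibroblast markers had a median of -0.84 with the offset (-0.82 without) and cholesterol synthesis genes 0.17 (0.19 without). Other lists moved more: ribosomal protein genes from -0.01 to -0.10 and GABA receptor genes from 0.27 to 0.39. Whether length and GC content caused any of the differences was not tested.

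**Figure D3:**
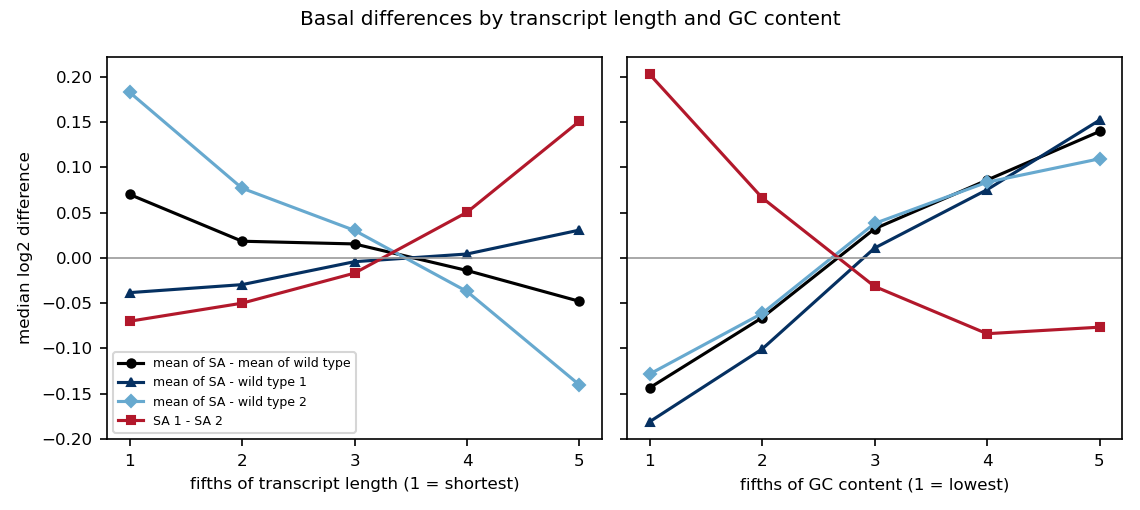
Median log2 difference at basal by quintiles of transcript length (left) and GC content (right), about 2920 genes a point. SA against wild type 2 runs from 0.18 to -0.14 with length, and all comparisons of SA with wild type run upward with GC content, while SA 1 against SA 2 runs from 0.20 to -0.08.

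Without wild type 1 the genes of lowest p that also did not overlap in the full comparison were chosen likewise. Among the higher ones, Cox7c, a subunit of cytochrome c oxidase, was at 98.0 and 94.7 against 79.4 and 68.4 CPM, and the cyclophilin gene Ppia at 822 and 830 against 679 and 572. For both genes wild type 2 was the lowest library. Atpif1, Usmg5, Timm8b, Ndufa12 and Nnt, which encode mitochondrial proteins, and Atp6v1f and Gpr180 were also in the set. The difference of SA from wild type 2 was 0.18 in the median over the quintile of genes with the shortest transcripts. Ppia has processed copies in the genome, among which reads may have been split.

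Among the lower ones without wild type 1 were Col6a3, a collagen VI chain, at 4.17 and 4.15 CPM in SA and 5.45 and 7.30 in wild type, and Eif2ak2, the interferon-inducible double-stranded RNA kinase PKR, at 11.96 and 11.3 against 17.9 and 18.7 CPM. Eif2ak2 differed by -0.65 with all libraries and by -0.68 without wild type 1, and after KCl stood at 8.36 and 10.8 against 19.1 and 19.0 CPM. Its wild-type values were within 1 CPM of each other in both treatments. Prune2, Adamts12, Gjb2, Cpne3, Golim4, Rapgef6, Fbn2 and Zfp966 made up the rest.

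Genes of meningeal fibroblasts, cells of the brain's coverings that secrete collagens, were lower in SA whichever library was left out. Of 15 markers tested, 14 were lower, 11 of them in both SA libraries against both wild-type libraries, beside 14.7% of all genes, and 9 had an unadjusted p under 0.05, beside 3.93%. Like all lists here, this one was chosen with earlier results of these data known, so its shares beside all genes describe and do not test. The list median was -0.82 on the log2 scale (all genes 0.01), -0.67 without wild type 1, -1.22 without wild type 2, -0.83 without SA 1 and -1.15 without SA 2. Igf2, a growth factor secreted by the meninges (chromosome 7, 142650766 to 142666816, minus strand), was at 78.0 and 90.3 CPM in SA, 224 in wild type 1 and 124 in wild type 2. Col1a1 (chromosome 11, 94936224 to 94953042, plus strand) was at 21.1 and 23.8 against 44.2 and 40.8 CPM, and Dcn, the proteoglycan decorin, at 8.30 and 7.57 against 14.3 and 12.6. In Igf2 wild type 1 was far above wild type 2, while in Col1a1 and Dcn the wild-type libraries lay close and both above SA.

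Postn, the matricellular protein periostin, was at 8.61 and 8.73 CPM in SA, 26.3 in wild type 1 and 15.4 in wild type 2, and Lum, the proteoglycan lumican, at 1.43 and 1.54, 8.72 and 2.91. Foxc1, a transcription factor of the meninges, was at 2.26 and 2.74 against 4.46 and 4.11 CPM. Nov was the exception, at 121 and 81.9 CPM in SA, 10.3 in wild type 1 and 92.8 in wild type 2. The summed level of the 15 markers was 437 and 415 CPM in SA and 638 and 530 in wild type, and none was at 0. This sum includes Nov, which went the other way. In bulk RNA, fewer cells of a type and less RNA per cell cannot be told apart. After KCl the median was -0.78 with 13 of 15 lower, and in SE it was -0.35 with 11 of 15 lower. Same-numbered basal and KCl libraries deviated alike, as given above, so the KCl median is no separate support.

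Matrix genes were lower as well. All 23 fibrillar collagen and basement membrane genes were lower in SA, 12 without overlap (beside 14.7% of all genes), with a median of -0.63, and 22 were lower without wild type 1 (median -0.39). Col1a1, Col1a2 and Col3a1 stand in both lists. Nid1, the basement membrane linker nidogen, was at 22.0 and 29.4 CPM in SA and 48.8 and 41.6 in wild type, a log2 difference of -0.81 and of -0.69 without wild type 1. Col3a1 was at 23.2 and 25.4 against 62.4 and 40.5 CPM, and Col1a2 at 32.0 and 34.7 against 49.7 and 53.2. Here SA 1 mattered as well: for Fn1, Sparc and Col5a1 SA 1 was the lowest library (66.8, 263 and 14.3 CPM) and SA 2 (124, 479 and 26.3) overlapped wild type 2 (133, 399 and 27.6) or lay near it. Without SA 1 the median was -0.28.

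Endothelial and mural cell genes were split: of 12 tested, 8 were lower and 4 higher. Their median was -0.13, -0.12 without wild type 1, 0.28 without SA 1 and -0.67 without SA 2, and after KCl it was -0.56 with all 12 lower. Acta2, smooth muscle actin, was at 170 and 590 CPM in SA and 589 and 306 in wild type, so libraries of 1 genotype differed more than the genotypes. Pecam1 was below 1 CPM in all 4. Microglial genes were lower in 11 of 15, with a median of -0.11 (-0.16 without wild type 1 and -0.007 without SA 1). After KCl their median was 0.07, with 6 lower and 9 higher. At basal Ptprc, the leukocyte phosphatase CD45, was lower in both SA libraries. Choroid plexus genes had a median of -0.20, but of 0.04 without wild type 1 and 0.24 without SA 1, with their summed level at 277 and 683 CPM in SA and 853 and 358 in wild type.

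**Figure D4:**
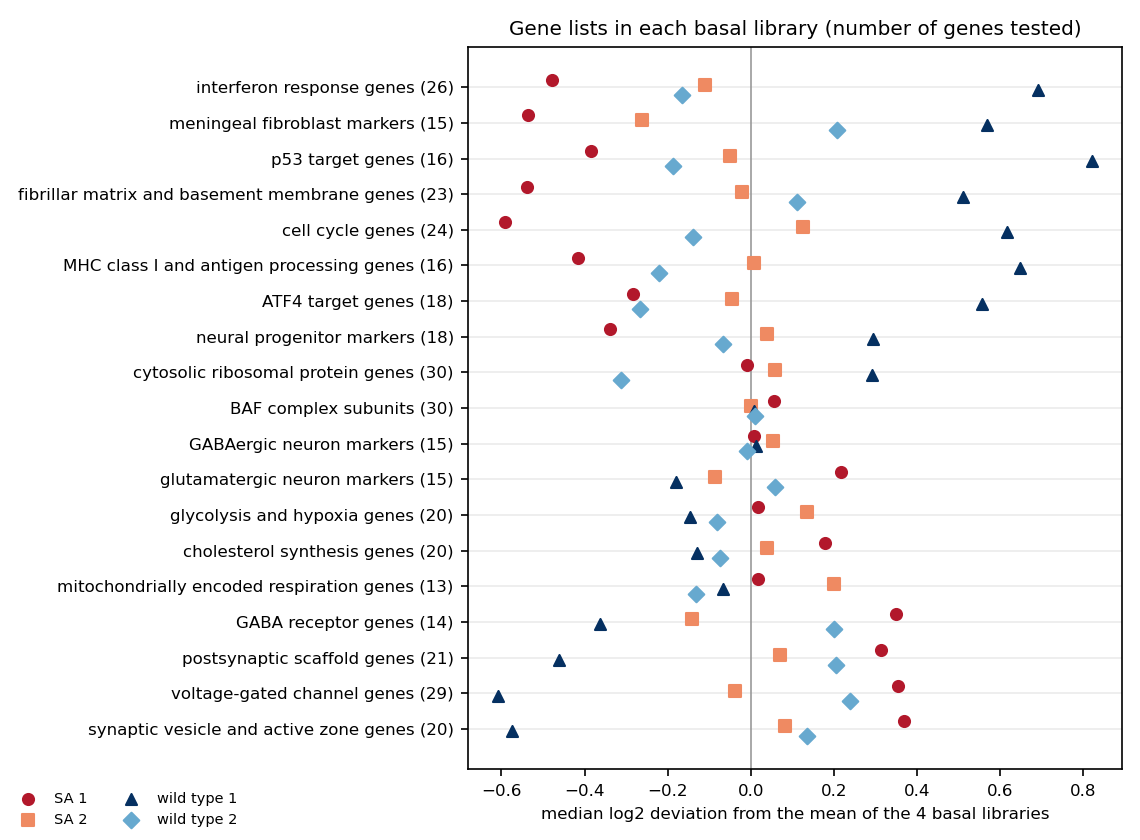
Median log2 deviation of each gene list from the mean of the 4 basal libraries, 1 point a library, with the number of genes tested in brackets. Wild type 1 lies at one end of most lists, from 0.82 for p53 targets to -0.61 for voltage-gated channels. Both SA libraries lie on one side of both wild-type libraries for meningeal, matrix, cholesterol, glycolysis and mitochondrially encoded genes.

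Interferon response genes were lower in SA mainly against wild type 1. Type I interferon induces these genes, many of which carry a repeated GAAA element in their promoters. Of 26 tested, 25 were lower in SA with a median of -0.89, and wild type 1 was the highest library in 25 of 26, beside 34.4% of all genes. Without wild type 1 the median was -0.09, with 17 of 26 lower, beside 46.5% of all genes. Bst2, tetherin, was at 2.26 and 4.45 CPM in SA, 13.6 in wild type 1 and 3.57 in wild type 2. Isg15, a ubiquitin-like protein, was at 0.391 and 0.599, 2.15 and 0.498 CPM, and Ifit1, which binds viral RNA, at 0.348 and 0.385, 2.98 and 0.332. For all 3 genes wild type 2 lay within or just outside the SA range.

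The promoters of these 3 genes are shown because the genes were high together in 1 library. They run from 250 bases before to 50 bases after the start of the RefSeq gene in GRCm38.p6, each 5′ to 3′ on the strand of the gene, with matches to GAAA, any 2 bases, GAAA (on either strand) in capitals (overlapping matches run together).
Bst2, chr8:71537423-71537722, minus strand: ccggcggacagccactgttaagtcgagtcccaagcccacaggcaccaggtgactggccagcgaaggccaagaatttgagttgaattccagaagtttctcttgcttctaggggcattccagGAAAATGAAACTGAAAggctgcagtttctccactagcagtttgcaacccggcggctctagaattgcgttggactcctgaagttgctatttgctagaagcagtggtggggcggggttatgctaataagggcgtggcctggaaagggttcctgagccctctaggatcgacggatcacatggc
Isg15, chr4:156200769-156201068, minus strand: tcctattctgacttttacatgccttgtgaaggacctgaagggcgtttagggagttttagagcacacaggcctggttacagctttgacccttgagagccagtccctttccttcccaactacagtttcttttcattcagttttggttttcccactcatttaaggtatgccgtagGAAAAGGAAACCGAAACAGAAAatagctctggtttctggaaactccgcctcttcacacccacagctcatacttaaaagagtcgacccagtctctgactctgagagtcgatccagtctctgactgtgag
Ifit1, chr19:34640639-34640938, plus strand: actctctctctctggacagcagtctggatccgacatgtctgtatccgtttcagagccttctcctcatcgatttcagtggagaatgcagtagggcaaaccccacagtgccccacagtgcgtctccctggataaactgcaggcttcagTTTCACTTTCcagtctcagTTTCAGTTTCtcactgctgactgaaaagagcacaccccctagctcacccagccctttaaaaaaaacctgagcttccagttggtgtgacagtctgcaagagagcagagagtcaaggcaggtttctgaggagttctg
Of the 28 genes of the list, 19 matched a RefSeq promoter and 12 of these (63.2%) held the element, against 1079 of 27025 genes (3.99%) over all promoters of the table. The list was made of genes that interferon induces, so this share describes the choice of genes. Not every gene of the 12 was high in wild type 1. Stat2 and Gbp3 held the element, and wild type 1 differed there by -0.12 and 0.24 (log2) from the mean of the other three. A match is a description of the letters and not of binding.

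Of the 26 interferon genes, 10 were lower in both SA libraries than in both wild-type libraries, beside 14.7% of all genes. Wild type 1 was the highest library in 25 of the 26. For those genes the count asks only whether wild type 2 exceeded both SA libraries, so the 14.7% is no like measure. Irf7, a transcription factor that amplifies the response, was at 0.217 and 0.556 CPM in SA and 1.51 and 0.913 in wild type, a log2 difference of -1.63 and of -1.22 without wild type 1. Ifit2 was at 13.0 and 14.9 against 26 and 19.2 CPM, a difference of -0.70 and of -0.46 without wild type 1. Usp18, at 0.348 and 0.513 against 2.11 and 0.540 CPM, rested on wild type 1. The median over the list was -0.99 after KCl, where the library numbered wild type 1 again had the highest list median, and 0.08 in SE. The 14 interferon and innate sensor receptors had a median of -0.09 and of -0.02 without wild type 1. The 16 MHC class I and antigen processing genes had a median of -0.47 and of -0.06 without wild type 1, and 3 of 14 matched genes (21.4%) held the element.

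Proliferation and stress genes followed wild type 1 as well, with SA 1 at the other end for cell cycle and progenitor genes. All 24 cell cycle genes were lower in SA, with a median of -0.48, and wild type 1 was the highest library for all 24, while without it 15 were lower with a median of -0.06. Top2a, the mitotic topoisomerase, was at 93.3 and 122 CPM in SA, 230 in wild type 1 and 140 in wild type 2, Kif11, a spindle motor, at 28.6 and 35.1, 60.8 and 41.5, and Cenpf, a kinetochore protein, at 32.5 and 39.1, 67 and 46.2. For these 3 genes both wild-type libraries were above SA, although wild type 2 by less. Neural progenitor markers had a median of -0.25 and of -0.02 without wild type 1, with Nes at 178 and 352 CPM in SA and 513 and 314 in wild type. The medians of p53 targets (-0.68) and ATF4 targets (-0.35) became -0.01 and 0.15 without wild type 1, and it was the highest library for 13 of 16 and 16 of 18 of them. Without SA 1 the medians were -0.20 for cell cycle genes, -0.13 for progenitor markers, -0.46 for p53 targets and -0.22 for ATF4 targets. From the mean of the 4 libraries, cell cycle genes deviated by -0.59 in SA 1 and 0.62 in wild type 1 (list medians). For progenitor markers these deviations were -0.34 and 0.29.

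Synaptic and channel genes were the mirror image. The median was 0.39 for 20 synaptic vesicle and active zone genes (18 higher in SA), 0.29 for 21 postsynaptic scaffold genes, 0.30 for 29 voltage-gated channel genes, 0.20 for 21 glutamate receptor genes and 0.27 for 14 GABA receptor genes. Wild type 1 was the lowest library for 19 of 20, 16 of 21, 26 of 29, 14 of 21 and 10 of 14 of them, beside 33.3% of all genes. Without wild type 1 the medians were 0.12, -0.01, -0.08, -0.09 and 0.09. Without SA 1 they were 0.25, 0.11, 0.03, -0.10 and -0.09 in the same order, so SA 1 mattered as well. The vesicle GTPase gene Rab3a was at 334 and 305 CPM in SA, 193 in wild type 1 and 258 in wild type 2, the SNARE gene Vamp2 at 597 and 504, 349 and 470, and Cplx1, a complexin that clamps fusion, at 267 and 230, 113 and 204. In these 3 genes SA was above both wild-type libraries, by less for wild type 2. Glutamatergic and GABAergic markers had medians of 0.12 and 0.05 with all libraries and 0.07 and 0.05 without wild type 1.

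Cholesterol synthesis genes were slightly higher in SA in both forms of the comparison. Of 20 tested, 17 were higher (beside 50.8% of all genes), 13 of them without overlap (65%, beside 19.5% of all genes). In the edgeR test 7 were higher at an unadjusted p under 0.05, beside 3.29% of all genes. The median was 0.19, 0.17 without wild type 1, and 0.12 to 0.28 over the 4 comparisons that left out 1 library. Fdft1, squalene synthase (chromosome 14, 63145150 to 63179578, minus strand), was at 222 and 206 CPM in SA and 172 and 174 in wild type, a log2 difference of 0.31 ± 0.10. Nsdhl, a sterol dehydrogenase, was at 68.9 and 66.8 against 56.4 and 55.2 CPM, and Mvk, mevalonate kinase, at 55.7 and 50.8 against 42.3 and 40.6. In these 3 genes the wild-type libraries were nearly equal.

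Dhcr7, the last enzyme of the pathway, was at 112 and 110 CPM in SA, 64.0 in wild type 1 and 85.3 in wild type 2. Scaled by library totals alone the list median was 0.09, and with limma on TPM 0.08. After KCl it was 0.17 with 4 of 20 lower, and in SE 0.00 with 12 of 20 lower.

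Genes of energy metabolism were higher by a similar amount. Of 20 glycolysis and hypoxia genes 14 were higher, with a median of 0.13, 0.18 without wild type 1, 0.04 with library totals alone and 0.02 with limma on TPM. Pfkl, phosphofructokinase, was at 66.6 and 68.5 against 51.3 and 56.5 CPM, Ldha, lactate dehydrogenase, at 347 and 345 against 279 and 292, and Tpi1 at 218 and 241 against 170 and 199. Of the 13 mitochondrially encoded genes 12 were higher (median 0.19, 0.21 without wild type 1 and 0.10 with library totals alone). A larger difference than that median was seen in mt-Co2, a subunit of cytochrome c oxidase, at 2347 and 2905 CPM against 1446.5 and 1787. The mitochondrial share of all counts overlapped, at 7.05% and 7.95% in SA and 7.37% and 6.76% in wild type. In SE the mitochondrial list had a median of -0.20 with 12 of 13 lower. Ribosomal protein genes had a median of -0.01, but 0.33 without wild type 1, with 29 of 30 then higher, and wild type 2 was below the other three in the list median.

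**Figure D5:**
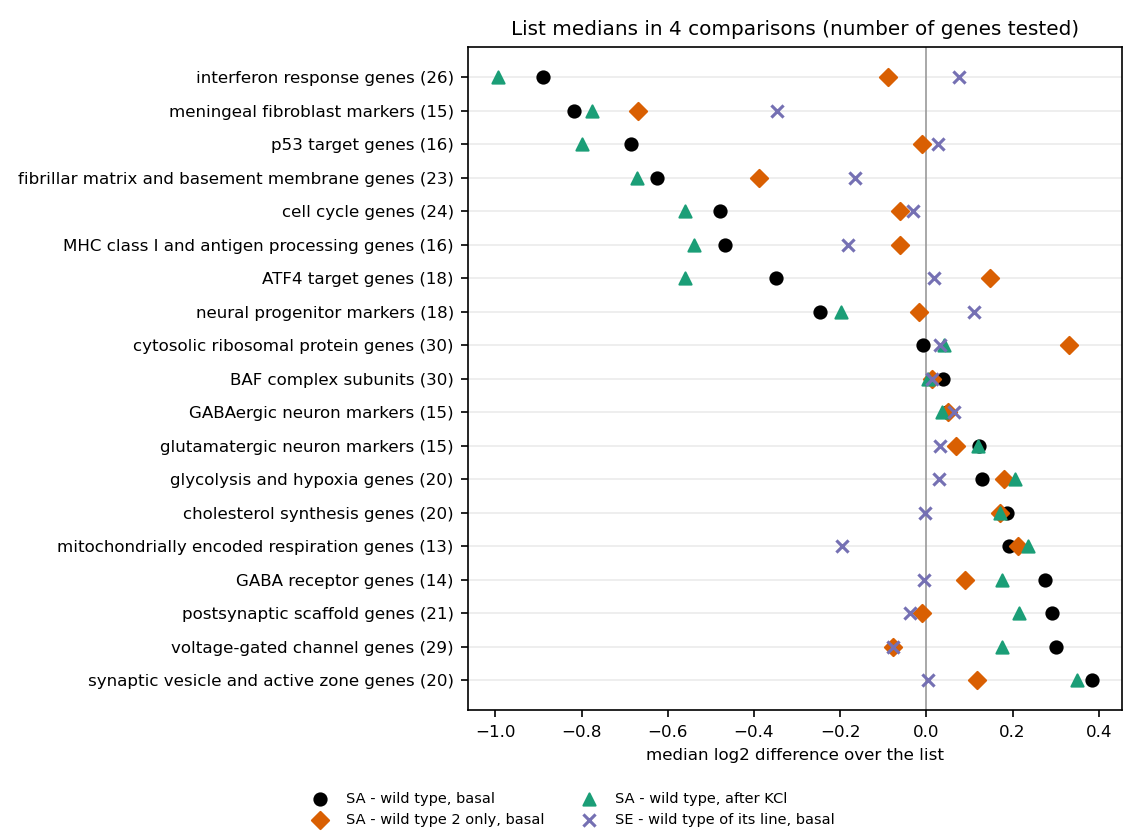
Median log2 difference of each gene list in 4 comparisons, with the number of genes tested in brackets. Interferon genes go from -0.89 with all libraries to -0.09 against wild type 2 alone, while meningeal markers (-0.82 and -0.67) and cholesterol genes (0.19 and 0.17) stay near their first value.

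The basal differences were set beside those after KCl and those of the SE substitution, each fitted in the same model. SA against wild type after KCl had 0 genes called by edgeR (0%), 2040 at an unadjusted p under 0.05 and 126 called by DESeq2, and wild type 1 stood apart in the KCl libraries too. The difference between the SA effect after KCl and at basal had 0 genes called (0%), with 122 at an unadjusted p under 0.05 and a lowest adjusted p of 1.00. SE against its single wild-type library at basal had 0 called (0%) and 187 at an unadjusted p under 0.05. Whether the SE line would show the list differences of SA at equal replication was not tested.

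At the level of transcripts, 1 of 47808 (0.00209%) passed the edgeR test, with 2185 at an unadjusted p under 0.05. Morc3-206, a protein-coding transcript of the nuclear MORC ATPase gene Morc3 (chromosome 16, 93832121 to 93876073, plus strand), was at 11.1 and 9.62 CPM in SA and 1.18 and 0.705 in wild type, a log2 difference of 3.45 ± 0.25 (adjusted p = 0.0228). It was at 11.2 and 10.5 CPM in SA and 12.7 and 11.5 in wild type after KCl, so the basal wild-type libraries were the low ones. The gene Morc3 as a whole differed by -0.25. The call was lost when only the SA line or only the 4 libraries were fitted, and without SA 1.

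The 9 other transcripts named by lowest p were listed at 0 in both libraries of 1 genotype. Ctnnb1-210, a retained-intron transcript of the beta-catenin gene, was at 6.78 and 5.02 CPM in SA and 0 in both wild-type libraries, and Iars-206, of an aminoacyl-tRNA synthetase gene, was at 0 in both SA libraries and 5.42 and 5.55 CPM in wild type. After KCl all 9 were above 0 in all 4 libraries of the SA line, with Ctnnb1-210 at 8.43 and 6.25 CPM in SA and 6.51 and 14.4 in wild type. The error of kallisto's assignment of reads among transcripts of a gene was not measured, and no fold is given for transcripts listed at 0.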

How the data were processed

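RNA-seq libraries were made from TRIzol-extracted RNA with an Illumina kit, per the labels' protocols. The submitters' processing notes name kallisto 0.43.1 and the build GRCm38 (mm10). The authors deposited estimated counts and TPM per transcript and per gene symbol. Deposited estimated counts need not be whole (65.6% of nonzero gene values were not, at a tolerance of 1e-06) and were rounded. Deposited TPM values served only in an alternative, as log2(TPM + 0.5). The sources used here do not say whether strand was used.

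Genes kept by filterByExpr (17732) were fitted with edgeR 4.0.16 in R 4.3.3 (TMM, glmQLFit and glmQLFTest, 8 group means over 14 libraries, 6 residual degrees of freedom), with calls where the Benjamini-Hochberg adjusted p was under 0.05. Transcripts were fitted likewise. Deviations of single libraries used log2(CPM + 0.5). Alternatives used limma 3.58.1, DESeq2 1.42.0, other scaling and filters, a replicate block and each library left out. A crossed block and an offset smoothed on length and GC content (span 0.3) were added after seeing the data. Scripts were tested on simulated data.

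The samples and the 36 gene lists were chosen with earlier results of these data known. Named were Smarca4; 12 genes in each direction of lowest p (mean level 1 CPM or more, groups that did not overlap); 10 in each direction without wild type 1; 12 in each direction that set wild type 1 apart (mean of at least 5 CPM, other three within 2-fold); up to 4 genes a list by lowest p (markers by abundance); and 5 transcripts in each direction. Unnamed gene models were passed over (2 among the higher genes), and some genes the rule names are not reported here. Col5a1, Dcn, Fn1, Foxc1, Ifit1, Isg15, Neurod6, Pecam1, Sparc and Xist were chosen after their values were seen. The test of the SA against the SE effect was also added after seeing the data. Coordinates are 1-based GRCm38 positions from GENCODE M21; promoters are from RefSeq.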

Additional observations from a re-analysis of the deposited data

How the results depend on the processing

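Of 15 alternatives for SA against wild type at basal, 13 also called 0 genes, among them the replicate block (0 genes, and 1 transcript in the transcript test). Leaving out each library gave 0 to 1 genes, the 1 being an unnamed model without SA 1, and 528 to 3738 genes at an unadjusted p under 0.05, the extremes without wild type 1 and without wild type 2. The labels do not state whether replicate numbers pair SA with wild-type samples. The difference of replicate 1 from 2 correlated between SA and wild type at -0.50 at basal and -0.50 after KCl. This cannot decide the pairing, because SA 1 and wild type 1 were the libraries farthest from the others. With the crossed pairing, which joins libraries of like Xist level and was added after seeing the data, 16 genes were called at basal, 853 after KCl and 2 transcripts. After KCl DESeq2 called 126 genes, and leaving out each library gave 0 to 1. For SE at basal limma called 1 gene, the fit of the line only 3 and the fit of the compared libraries only 1. For transcripts no filter on low counts gave 4, the fit of the line only 0, the fit of the compared libraries only 0, and leaving out each library 0 to 6. The causes were not tested. In the log2 difference, Smarca4 reversed to -0.0335 with library totals only, -0.0584 with limma on TPM, -0.0058 with the length and GC offset and -0.0419 without wild type 1, and ranged from -0.0419 to 0.165 over the libraries left out; of 1140 gene values under alternatives no other reversed, and 2 passed the threshold, Kif11 (-0.67) and Sst (0.99), both with the crossed pairing. Of 540 list medians 79 were counted as moved against the spread between replicates. That count includes every alternative of the blood cell list, whose spread was 0 and whose median stayed at 0 in most of them.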

Other observations

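Other gene groups at basal are given as values. Of 30 immediate early genes, transcribed within minutes of neuronal activity, 22 were lower in SA with a median of -0.18 (log2), and the median was 0.03 without wild type 1. Ier3 was at 1.35 and 2.14 CPM in SA, 6.29 in wild type 1 and 2.24 in wild type 2, so only wild type 1 was high. Egr4, an activity-induced transcription factor, was at 1.35 and 1.58 against 0.716 and 1.04 CPM, and Arc, which acts in synaptic receptor traffic, at 1.70 and 1.84 against 2.98 and 2.24 CPM. Neither overlapped between the groups, as for 2 of 30 genes of the list in each direction, beside 19.5% of all genes higher and 14.7% lower.

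Of 20 Polycomb and chromatin repressor genes 13 were lower, with a median of -0.06, and without wild type 1 10 were lower with a median of 0.0039. Rest, a repressor of neuronal genes, was at 6.48 and 6.54 CPM in SA and 11.5 and 8.92 in wild type, a log2 difference of -0.65 and of -0.45 without wild type 1. Ezh2, the Polycomb methyltransferase, was at 22.7 and 29.1 against 49.6 and 30.9 CPM, with wild type 2 close to SA 2. Sst, the neuropeptide somatostatin, was at 17.4 and 11.5 CPM in SA, 4.97 in wild type 1 and 9.92 in wild type 2. Shh, the hedgehog ligand, was at 10.7 and 9.50 against 6.25 and 7.97 CPM, while 10 of 14 hedgehog pathway genes were lower, and 6 of 14 without wild type 1. No adjusted p of these genes was under 0.621 with edgeR as designed.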
